A study of Homo sapiens with 2 samples.

Results

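Within the library labelled as the GANAB knockdown, cells without any counted GANAB message were compared with cells in which more of it was counted. Group A was made up of the 343 cells with 0 GANAB unique molecular identifiers (UMIs, each standing for 1 captured mRNA molecule). Group B was made up of the 105 cells in which GANAB took at least 100 of every 1000000 of the cell's own UMIs (counts scaled in this way are given as CPM). Members were thus chosen by their GANAB counts, which are given as a description and support nothing. Both were drawn from the 1555 knockdown barcodes that held 30000 to 80000 UMIs with at most 20% from mitochondrial genes, and the other 1107 of these, with a GANAB UMI but under 100 CPM, are called intermediate. The same window of the control library held 3050 cells, so that A and B together were 448 of 4605 cells in all. The cells were UMUC3, a human bladder carcinoma line, and both the control and the knockdown cells had grown for 14 days in the bladders of C57 nude mice before single-cell 3' sequencing. A and B thus share the genotype label, host strain, library and age, and the rule divided them by the GANAB count alone. A count of 0 is easier to reach in a cell with fewer UMIs, so the rule can also separate cells by depth. The labels do not name the agent used for the knockdown, the number of mice or whether the cells came from 1 clone. With 1 library per genotype there is no replicate, no test was possible, and every interval below covers counting error only.

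Glucosidase II is built from a catalytic alpha subunit, the product of GANAB, and a regulatory beta subunit, the product of PRKCSH. The enzyme removes the inner glucose residues from the N-glycans of newly made proteins in the endoplasmic reticulum (ER). Glycans with a single glucose left are bound by the chaperones calnexin and calreticulin, and removal of the last glucose releases the protein for onward transport. UGGT enzymes put a glucose back on proteins that are not yet folded, and proteins that fail repeatedly are sent to ER-associated degradation.

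The GANAB counts that chose the groups were low throughout the knockdown library. GANAB (ENSG00000089597; GRCh38 chromosome 11, 62624826 to 62646726, minus strand) stood at 40.2 CPM over the knockdown window and at 124 CPM over the control window. Group B held 628 GANAB UMIs, or 128 CPM (95% Poisson interval 118 to 139), with 4 to 12 UMIs in a cell. The intermediate cells stood at 43.5 CPM. The pooled level of B is set by the rule that chose its cells, so it does not show GANAB at the level of the control library. The control cells that met the rule of B stood at 162 CPM. The edges of the groups were not gaps. The lowest value in B was 100.1 CPM and the highest below it 98.4 CPM, with 23 cells of B between 100 and 110 CPM and 41 intermediate cells between 90 and 100 CPM. On the other side, 425 cells held exactly 1 GANAB UMI. A count of 0 at the median depth of A allows a true level of up to 75 CPM (the level at which 3 UMIs would be counted on average), which is above the mean of the library, so absent GANAB means not counted and does not show a cell without the message. Barcodes with at most 100 UMIs, which hold mostly free RNA, had GANAB at 27.2 CPM (23.3 to 31.5) in the knockdown library.

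**Figure D1:**
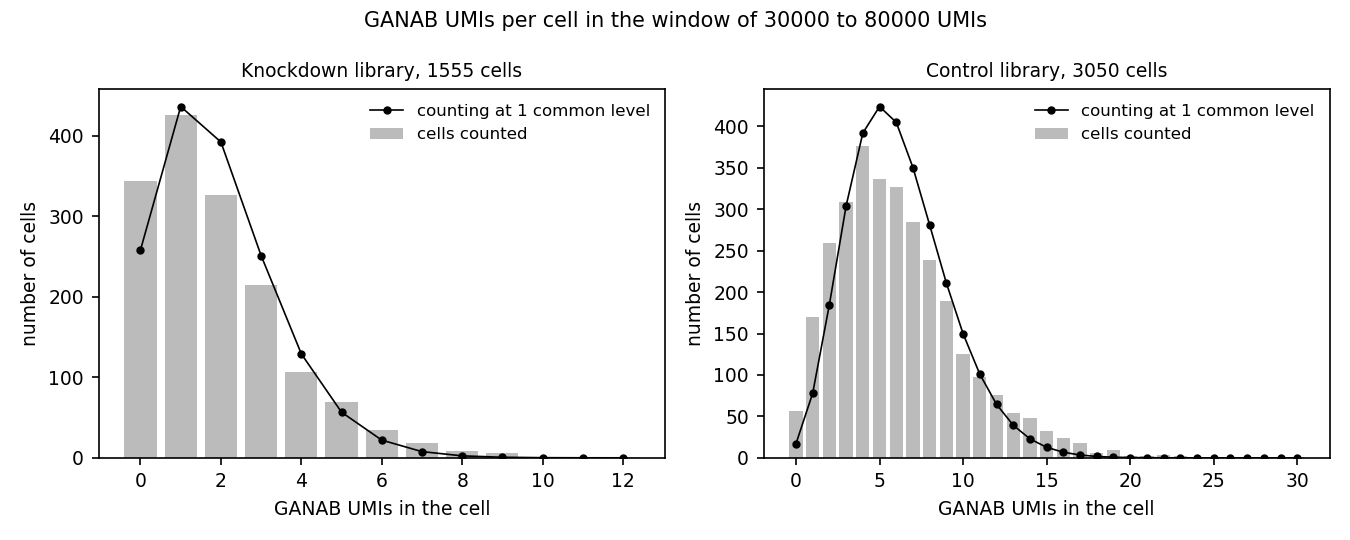
Number of cells (vertical axis) by GANAB UMIs in the cell (horizontal axis) in the knockdown library (left) and the control library (right). Bars are cells counted and black points are the numbers that Poisson counting at 1 common level would give at the same depths. In the knockdown library 343 cells had no GANAB UMI where 258 would be given by counting.

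The numbers that counting at 1 common level would give are set beside the split as a description. Poisson counting of 40.2 CPM at the depths of these cells gives 258 cells with 0 UMIs and 57.1 cells at 100 CPM or more, where 343 and 105 were counted. The variance of GANAB UMIs over cells was 1.49 times the mean. Among 1430 genes of a like level (30.2 to 53.6 CPM) the median of this ratio was 1.53, and 792 of them had a larger one than GANAB. In the control library 57 cells had no GANAB UMI where counting gives 17, with a ratio of 1.71 beside a median of 1.86 for 619 genes of a like level.

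Groups A and B differed in depth and in the number of genes seen, and in the same split of the control library A was again below B. The median cell of A held 40014 UMIs, that of the intermediate cells 46287 and that of B 44117. In the control split the medians were 35967, 45164 and 49379, so the place of the intermediate cells differed. After each cell was thinned to 30000 UMIs, 4812 genes were detected in the median cell of A (quartiles 4381 and 5172), 4942 in the intermediate cells and 5100 in B (4825 and 5446). In the control library the medians were 4768 in the 57 cells without a GANAB UMI, 4952 in 1171 intermediate cells and 5128 in the 1822 cells with at least 100 CPM. The 100 most abundant genes took 47.8% of the UMIs of A and 44.3% of those of B, and 46.8% and 42.8% in the control split. Mitochondrial genes made up 0.848% of UMIs in the median cell of A and 1.01% in B. Cells with under 1000 CPM of MALAT1, a nuclear RNA, were 39.9% of A, 37.9% of the intermediate cells and 27.6% of B. The share of these measures in the gene differences was not tested, apart from the counts within depth strata and without the cells low in MALAT1 that stand beside the number of called genes.

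The cell label was checked against marker genes. All 12 markers of UMUC3 and carcinoma lines were measured, among them VIM, an intermediate filament protein, at 5717 CPM in A and 4981 CPM in B. No member of 8 fibroblast markers or 6 endothelial markers reached 10 CPM in A or B; the 8 fibroblast markers summed to 11.8 CPM in A, 14.2 CPM in the intermediate cells and 3.47 CPM in B, and the 6 endothelial markers to 0.399 and 0.204 CPM in A and B. Of 10 leukocyte markers only CD68, a lysosomal glycoprotein that is not limited to leukocytes, was measured, and the list summed to 22.9 CPM in A and 23.7 CPM in B. Of the barcodes of A or B, 2 also occurred in the control window.

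Genes lower in A far outnumbered genes higher in A. Of 7780 genes measured, meaning at least 10 CPM in A or B, 482 were at least 1.5-fold lower in A with an interval excluding a ratio of 1 (6.2%), and 46 were at least 1.5-fold higher (0.591%). This is a rule of size on summed counts and is not a test. Passing it is what the words called higher and called lower mean below. The intervals treat molecules as drawn independently, and since genes of GANAB's level varied over cells by a median 1.53 times the Poisson variance, they are too narrow. The median log2 ratio of A over B was -0.17, with 5855 genes below 0 and 1925 above. Relative to that median, 193 genes were lower in A (2.48%) and 108 higher (1.39%), so the excess of lower genes was smaller but did not turn. Within strata of depth 496 genes were called lower and 49 higher, within strata of depth and phase together 443 and 48, of which 321 and 36 were among the 482 and 46, and in G1 cells alone 414 and 54, of which 250 and 28 were. Without the cells under 1000 CPM of MALAT1 the numbers were 384 and 113. The median moved with expression, from -0.20 at 10 to 30 CPM, through -0.16, -0.09 and -0.04 at the steps between, to 0.11 at 1000 CPM and more.

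The control library divided by the same GANAB rule had a similar pattern. There 708 of 7736 genes were called lower in the cells without a GANAB UMI (9.15%) and 145 higher (1.87%), with a median of -0.14 and medians from -0.15 at the lowest to 0.12 at the highest expression step. Of the 482 genes called lower in A of the knockdown library, 409 were measured there and 349 of them lay below 0 (85.3%, beside 70.1% of all genes having the same sign in both libraries); 147 were called lower and 3 called higher. Of the 46 genes called higher, 29 were measured in the control split, 21 with the same sign (72.4%), 11 called higher and 3 called lower. The 70.1% covers genes of both signs, most of them below 0, so it is no yardstick for genes above 0. The median ratio of the 29 genes in the control split was 0.38, beside -0.14 for all genes.

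Intermediate cells, which had no part in choosing the genes, were used as a second look. Their level lay between those of A and B for 465 of the 482 genes called lower and 44 of the 46 called higher, beside 65.2% of all genes, although genes chosen for extreme values in A and B will tend to have this order. The intermediate cells were then divided at their own GANAB level, 398 cells under 30 CPM against 252 with at least 60 CPM. Of the 482 genes, 393 were again below 0 (81.5%, beside 66.7% of all genes), but only 21 passed the ratio and interval rule in that direction and 2 in the other, beside 41 lower and 8 higher of all 7780 genes. With the 10 CPM minimum applied to these cells themselves, 12 of the 482 and 3 of the 46 were called as in A over B. Of the 46 genes, 30 were above 0 (65.2%, beside 33.3% of all genes), with 3 called higher and 1 lower. Signs were thus shared more often than over all genes, while the sizes were mostly below the rule.

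A smaller share of A than of B scored as cycling, and the lists of S phase and of G2 and M phase had the lowest medians of all lists, although 440 of the 482 genes called lower stood in neither. Phase scores at 30000 UMIs put 62 cells of A (18.1%; Clopper-Pearson interval 14.1% to 22.6%), 25% of the intermediate cells and 29 cells of B (27.6%; 19.3% to 37.2%) in S or G2M phase, so that the intervals of A and B overlapped. Without thinning the shares were 18.1%, 25.9% and 28.6%. S phase cells were 7.29% of A and 14.3% of B, and G2M cells 10.8% and 13.3%. Within a score of 0.02 of the boundary lay 9 cells of A and 2 of B. In the control library the corresponding shares of S or G2M cells were 40.4%, 47.0% and 54.2%, the same order at a higher level. Depth went along with phase: among cells of 30000 to 40000 UMIs 12.3% of A and 17.9% of B were cycling, at 40000 to 50000 UMIs 15.9% and 15.6%, at 50000 to 60000 UMIs 14.9% and 44.4% (18 cells of B), and at 60000 to 80000 UMIs 48.8% and 56.2% (16 cells of B). Weighted to the same depths, the difference of A from B was -7.9 percentage points, beside -9.5 without weighting. Phase scores were computed from the same S phase and G2 and M phase lists, so the shares and the list medians are not separate evidence. The scores also read free RNA, whose part was not tested.

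**Figure D2:**
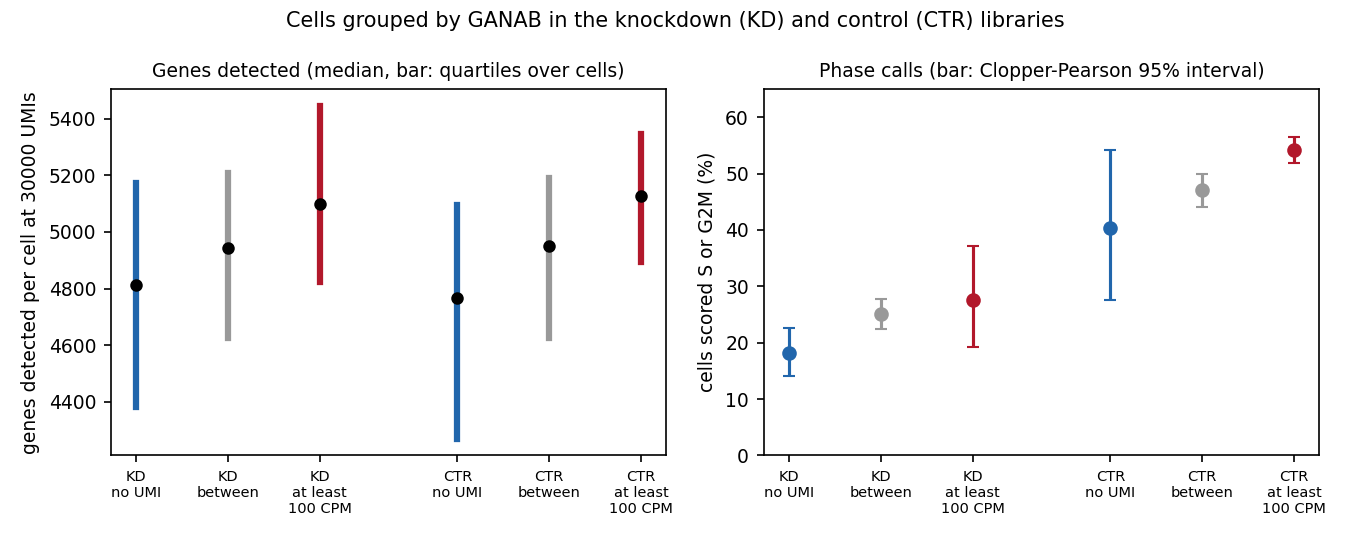
Left, genes detected per cell at 30000 UMIs (points, medians; bars, quartiles over cells). Right, percent of cells scored S or G2M (points) with Clopper-Pearson 95% intervals; in both panels the horizontal axis gives the 3 GANAB groups of the knockdown (KD) and control (CTR) libraries. Both measures are lowest without a GANAB UMI and highest with at least 100 CPM in either library, at medians of 4812 and 5100 genes and 18.1% and 27.6% cycling cells in the knockdown library.

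The S phase list held 37 measured genes, of which 21 were called lower in A and none higher, beside 6.2% and 0.591% of all genes. The median log2 ratio was -0.60, beside -0.17 for all genes. The sum over the list was 959.6 CPM in A, 1277 CPM in the intermediate cells, 1553 CPM in B and 2498 CPM in the control library. CLSPN, claspin, which holds the replication checkpoint kinase at stalled forks, stood at 12.6 CPM in A, 22.2 CPM in the intermediate cells, 34.9 CPM in B and 60.7 CPM in the control library, a log2 ratio of -1.47 (exact conditional binomial 95% interval -1.77 to -1.16). TYMS, thymidylate synthase, was at 43.8, 73.0, 93.8 and 141 CPM in the same order (-1.10; -1.27 to -0.92). NASP, a histone chaperone, was at 84.1, 113, 155 and 272 CPM (-0.88; -1.01 to -0.75). PCNA, the sliding clamp of DNA polymerases, was at 94.3, 119, 149.5 and 269 CPM (-0.67; -0.79 to -0.53). All 4 genes therefore had the same order, lowest in A and highest in the control library. The control library differed in more than GANAB, with 51.2% of its window cells scored S or G2M beside 23.7% in the knockdown window. The control library's own split had 30 of 40 S phase genes called lower, beside 9.15% of all genes there, and a median of -0.86. Among G1 cells alone 6 of the list were called lower in A, 1 was called higher and the median was -0.30. Within strata of depth and phase the median was -0.41 with 10 called lower. Phase was scored with this list and the G2 and M phase list. Ratios of their genes in G1 cells and phase strata are therefore not independent of the scores. In G1 cells CLSPN had -0.61 (-1.39 to 0.27) and TYMS -0.39 (-0.85 to 0.11), intervals that include no difference.

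Of 47 measured genes of G2 and M phase 21 were called lower in A and none higher, beside 6.2% and 0.591% of all genes. The median was -0.54, with 46 of 47 below 0. TOP2A, the DNA topoisomerase that untangles chromosomes before division, stood at 41.5 CPM in A, 86.2 CPM in the intermediate cells, 131 CPM in B and 110.3 CPM in the control library (-1.66; -1.82 to -1.50). Here B was above the control library. MKI67, the proliferation marker that coats mitotic chromosomes, was at 29.1, 56.9, 69.1 and 90.1 CPM (-1.25; -1.45 to -1.04). CENPF, a kinetochore protein, was at 40.4, 73.4, 88.7 and 119.5 CPM (-1.13; -1.31 to -0.95). NUF2, part of the kinetochore's microtubule-binding complex, was at 10.1, 20.2, 25.7 and 39.8 CPM. These genes came from a small part of the cells, since 5 cells held 51.9% of the TOP2A UMIs of B and 54.4% of those of MKI67. NCAPD2, a condensin subunit (-1.18), NUSAP1, a spindle protein (-1.18), LMNB1, lamin B1 (-1.14), and ATAD2, a chromatin ATPase (-1.04), were also among the 15 lower genes with the largest ratios. UBE2C, an E2 enzyme of the anaphase-promoting complex, had -0.55 and was not called, and CKS2, a subunit of cyclin-dependent kinases, had 0.36. Among G1 cells alone, chosen by scores that used this list, the median was -0.26, with 3 genes called lower and 1 higher. TOP2A had -0.52 and NUSAP1 0.12 there. Within strata of depth and phase the median was -0.17, that of all genes there being -0.16. In the intermediate cells divided by GANAB the median of the S phase list was -0.19 and that of the G2 and M phase list 0.12, beside -0.07 for all genes.

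Promoter sequences are given for S phase genes because that list stood furthest below the other lists. E2F transcription factors are known to drive such genes at the entry into S phase. RefSeq promoters of GRCh38.p14, from 250 bases before to 50 after the start of a gene, were searched on both strands for the letters TTTCCCGC, TTTGGCGC, TTTCGCGC and TTTGCCGC. Of 29 measured S phase genes with a promoter 18 held a match (62.1%), as did 10 of the 15 called lower (66.7%), 53 of the 375 genes called lower that have a promoter (14.1%), 41 of the 342 of them in neither phase list (12%) and 0 of the 34 called higher. Of 6261 measured genes 7.47% held one, as did 3.99% of all 27305 genes with a promoter. For TTTGAA, the letters of the cell cycle homology region of genes that peak in G2 and M phase, 28 of 40 measured G2 and M phase genes held a match (70%) and 15 of the 18 called lower (83.3%), beside 13.1% of measured genes. A match is a run of letters and not a known site. Not all called S phase genes were considered for printing, so genes with larger ratios than those printed, such as ATAD2 (-1.04), may be missing. Sequences below run 5′ to 3′ on the strand of the gene, with the matches in capitals. The 250 bases before the start are given for 4 called S phase genes that hold a match there. They are TYMS at chr18:657403-657652 on the plus strand, UHRF1 at chr19:4909251-4909500 on the plus strand, MCM3 at chr6:52284743-52284992 on the minus strand and HELLS at chr10:94545538-94545787 on the plus strand.
TYMS: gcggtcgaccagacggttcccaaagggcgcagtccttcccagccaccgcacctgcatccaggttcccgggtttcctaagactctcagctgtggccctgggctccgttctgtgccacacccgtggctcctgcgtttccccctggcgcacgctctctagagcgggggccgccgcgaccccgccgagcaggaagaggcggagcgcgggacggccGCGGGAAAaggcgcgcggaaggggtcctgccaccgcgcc
UHRF1: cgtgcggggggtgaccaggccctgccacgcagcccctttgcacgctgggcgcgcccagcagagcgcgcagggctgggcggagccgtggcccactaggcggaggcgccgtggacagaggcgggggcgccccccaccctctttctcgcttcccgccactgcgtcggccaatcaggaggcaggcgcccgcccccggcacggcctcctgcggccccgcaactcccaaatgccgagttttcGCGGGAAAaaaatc
MCM3: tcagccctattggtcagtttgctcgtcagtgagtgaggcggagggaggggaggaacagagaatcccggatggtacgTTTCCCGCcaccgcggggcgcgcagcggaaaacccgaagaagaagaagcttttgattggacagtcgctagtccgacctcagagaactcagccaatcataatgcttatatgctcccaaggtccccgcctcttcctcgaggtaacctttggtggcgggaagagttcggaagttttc
HELLS: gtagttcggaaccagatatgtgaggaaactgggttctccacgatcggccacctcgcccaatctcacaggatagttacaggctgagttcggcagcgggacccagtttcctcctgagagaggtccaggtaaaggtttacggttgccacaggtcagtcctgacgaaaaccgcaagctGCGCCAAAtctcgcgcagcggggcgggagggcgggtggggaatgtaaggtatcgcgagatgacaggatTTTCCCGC
HELLS holds 2 matches and the other promoters 1 each. UHRF1, which carries DNA methylation over replication, stood at 8.91 CPM in A and 18.4 CPM in B (-1.05; -1.44 to -0.64). MCM3, a subunit of the replicative helicase, stood at 26.7 and 49.0 CPM (-0.88; -1.11 to -0.64), and HELLS, a chromatin remodeller, at 30.4 and 50.3 CPM (-0.73; -0.95 to -0.50).

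The enzymes and chaperones of the glucosidase and calnexin cycle were close to the ratio of all genes. None of the 16 measured members was called in either direction, the median was -0.20 beside -0.17 for all genes, and all 16 were below 0. PRKCSH, the partner of GANAB in glucosidase II, stood at 42.4 CPM in A, 44.4 CPM in the intermediate cells, 55.4 CPM in B and 79.1 CPM in the control library (-0.39; -0.59 to -0.18), which is not past the rule, and its ratio in the control split was -0.02. LMAN1, a cargo lectin between ER and Golgi, was at 78.5, 90.5, 113 and 147 CPM (-0.53; -0.67 to -0.38). CANX, calnexin itself, was at 319.6, 350.3, 406 and 360.0 CPM (-0.35; -0.42 to -0.27). UGGT2, which reglucosylates unfolded glycoproteins, was at 23.7, 27.8, 33.7 and 25.2 CPM (-0.51), and PPIB, a prolyl isomerase of the ER, at 686, 709, 792 and 1056 CPM (-0.21). The highest of the 3 knockdown groups was B for each of these genes, by less than 1.5-fold over A.

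Among 12 oligosaccharyltransferase genes, whose products attach the glycan that glucosidase II trims, STT3A (39.4 CPM in A, 62.1 CPM in B; -0.66) and MAGT1 (42.2 and 63.5 CPM; -0.59) were called lower, beside 6.2% of all genes, and the median was -0.28. STT3A is a catalytic subunit and MAGT1 an oxidoreductase subunit of oligosaccharyltransferase complexes. In the control split STT3A was called lower too (-0.79), and MAGT1 had -0.17. In strata of depth and phase 1 of the 12 was called, and among G1 cells none. Of 19 ER chaperones induced by ATF6 and XBP1, the transcription factors that respond to unfolded proteins, none was called, with a median of -0.22. HSP90B1, the ER form of HSP90, stood at 386 CPM in A, 465 CPM in the intermediate cells, 559 CPM in B and 670.2 CPM in the control library (-0.53; -0.60 to -0.47), and PDIA4, a disulfide isomerase, at 78.3, 88.2, 115 and 137 CPM (-0.55; -0.70 to -0.41). No member of the 16 ER-associated degradation genes (median -0.18) or of the 13 genes of the ATF4 and CHOP stress response was called. TRIB3 (16.4 CPM in A, 23.3 CPM in B) and ASNS (25 and 35.1 CPM), both targets of ATF4, had -0.51 and -0.49. Of 9 Golgi N-glycan processing genes all were below 0, the median was -0.29, and ST3GAL4, a sialyltransferase, was called lower (9.84 and 15.1 CPM; -0.62).

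**Figure D3:**
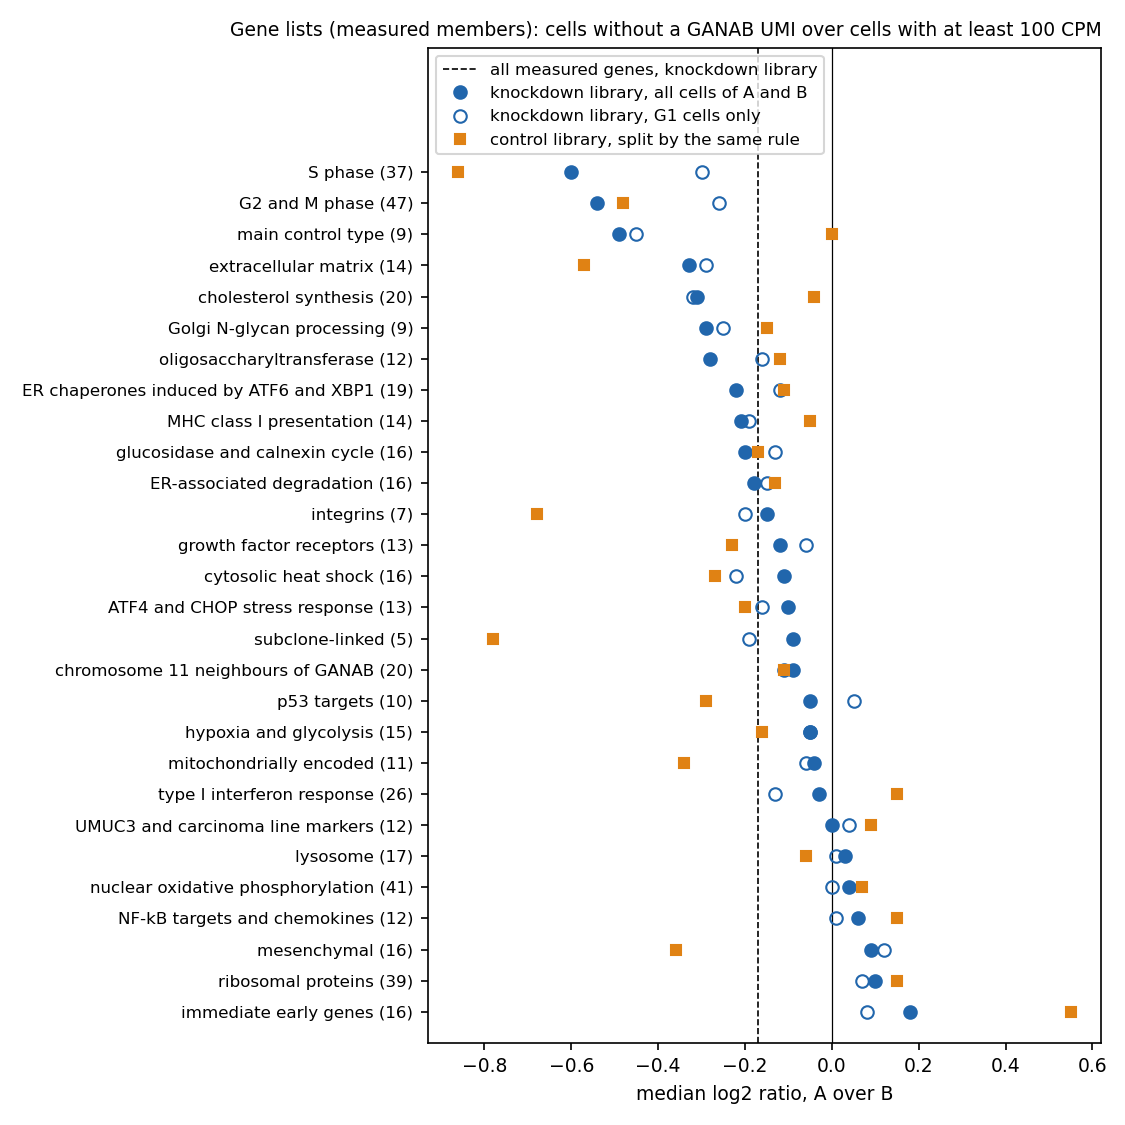
Median log2 ratio of A over B (horizontal axis) for each gene list with at least 5 measured members, with their number in brackets. Filled blue points are all cells of A and B, open blue points G1 cells only, orange squares the control library divided by the same rule, and the dashed line the median of all measured genes, -0.17. S phase (-0.60) and G2 and M phase (-0.54) stand furthest below the line and immediate early genes (0.18) furthest above it.

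Cholesterol synthesis and interferon genes, which stood far from the control library in all 3 knockdown groups, differed less between A and B. Of all measured genes, 6.2% were called lower in A and 0.591% higher. Of 26 interferon genes 3 were called higher and 2 lower, and 1 of 14 MHC class I genes was called lower. Both of these lower counts were near 6.2%. The 20 measured cholesterol synthesis genes had a median of -1.31 for intermediate cells over the control library and -0.31 for A over B, with 3 called lower in A, among them SQLE and HSD17B7. SQLE, squalene epoxidase, was at 40.3 CPM in A, 49.7 CPM in the intermediate cells, 62.9 CPM in B and 134 CPM in the control library (-0.64; -0.84 to -0.44). HSD17B7, a reductase of the later steps, was at 7.18 CPM in A and 11.4 CPM in B (-0.68; -1.15 to -0.18). HMGCS1, an early enzyme of the pathway, was at 82.5, 73.7, 102 and 350.2 CPM (-0.30), so even B was well below the control library. The 26 type I interferon response genes had a median of 2.21 for intermediate cells over the control library and of -0.03 for A over B. IFIT1, an RNA-binding antiviral protein, was at 111 CPM in A, 98.1 CPM in the intermediate cells, 70.7 CPM in B and 5.67 CPM in the control library (0.64; 0.48 to 0.82), and IFIT2 and OASL were also called higher. IFITM2, an antiviral membrane protein (17.4 CPM in A, 38.8 CPM in B, 6.3 CPM in the control library; -1.16), and OAS2, an RNA sensor (-0.83), were called lower. ISG15, a ubiquitin-like protein, was at 817, 773, 631 and 173 CPM in A, intermediate cells, B and control (0.37). IFIT2 (134 CPM in A, 85.4 CPM in B; 0.65) rested on few cells, 5 of which held 83.7% of its UMIs in B and 53.6% in A, and its ratio turned to -0.29 among cells of at least 50000 UMIs and to -0.45 with B taken from 75 CPM. OAS2 likewise turned, to 0.70, among cells of at least 50000 UMIs. Of 14 genes of MHC class I presentation, ERAP1, a peptide-trimming enzyme of the ER, was called lower (11.8 and 18.8 CPM; -0.67), and B2M, the light chain of class I molecules, was at 2770.2 CPM in A, 2412 CPM in B and 979.9 CPM in the control library (0.20; 0.17 to 0.23).

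The 15 genes with the largest ratios in A over B, among those called higher with at least 30 CPM in A, are described next. GEM, a small GTPase, stood at 74.4 CPM in A, 48.9 CPM in the intermediate cells, 38.8 CPM in B and 37.2 CPM in the control library (0.94; 0.72 to 1.17). ID2, an inhibitor of basic helix-loop-helix factors, was at 118, 68.4, 64.4 and 22.9 CPM (0.87; 0.70 to 1.05). GADD45B, a stress-induced regulator of MAP kinase signalling, was at 174, 119.8, 99.9 and 55.2 CPM (0.80; 0.66 to 0.94). DUSP5, a phosphatase of ERK kinases, was at 66.2, 51.6, 37.8 and 37.4 CPM (0.80; 0.58 to 1.04). CXCL2, a neutrophil-attracting chemokine, was at 179.6, 118, 104 and 39.6 CPM (0.79; 0.66 to 0.93). In each of these genes A was above the other 3 groups. The transcription factors BHLHE40 (0.76) and NFIL3 (0.72), the cytokine signalling inhibitor SOCS3 (0.71) and the kinase PLK2 (0.70) were also among them, with AVPI1 (0.67), CDC42EP3 (0.64) and HSD17B14 (0.76). Of the 16 measured immediate early genes none was called; the median was 0.18, with 10 above 0 and 6 below. DUSP1, a MAP kinase phosphatase, was at 1448 CPM in A, 1134 CPM in the intermediate cells, 1027 CPM in B and 506 CPM in the control library (0.50; 0.45 to 0.54). EGR1 (144 and 98.1 CPM in A and B; 0.55) and MYC (248 and 172 CPM; 0.53) had similar ratios, while FOS (774 and 709 CPM) had 0.13. In the control split 8 of 16 were called higher, beside 1.87% of all genes there, with a median of 0.55. GEM (1.22), CXCL2 (1.30) and DUSP5 (0.66) were called higher there too, whereas ID2 (-0.78) and PLK2 (-0.63) were called lower. In the intermediate cells divided by GANAB, the ratio of DUSP5 was -0.16, of ID2 -0.13, of NFIL3 -0.10 and of PLK2 -0.33, the opposite sign from A over B.

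**Figure D4:**
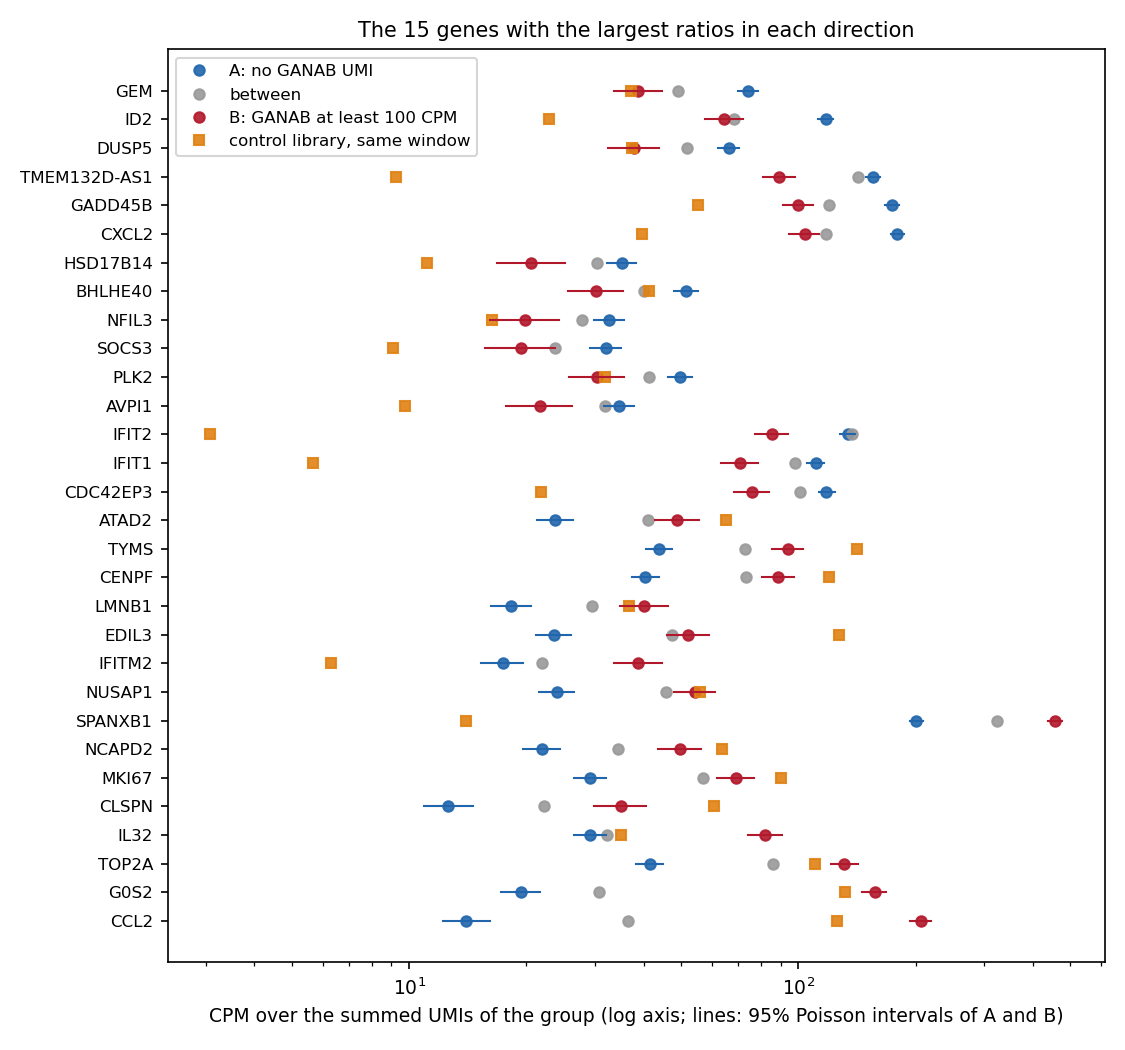
CPM (horizontal axis, logarithmic) of the 15 genes with the largest ratios in each direction, in group A (blue), intermediate cells (grey), group B (red) and the control library (orange squares); lines are 95% Poisson intervals of A and B. For CCL2 the values run from 14.0 CPM in A to 206 CPM in B, and for GEM from 38.8 CPM in B to 74.4 CPM in A.

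CCL2, G0S2 and IL32, among the 15 lower genes with the largest ratios at 30 CPM or more in B, had most of their UMIs of B in a handful of cells. CCL2, a monocyte-attracting chemokine, stood at 14.0 CPM in A, 36.5 CPM in the intermediate cells, 206 CPM in B and 126 CPM in the control library (-3.87; -4.09 to -3.66). A single cell held 47.1% of the CCL2 UMIs of B and 5 cells held 79.9%. G0S2, an inhibitor of triglyceride lipase, was at 19.4, 30.7, 157 and 132 CPM (-3.02; -3.22 to -2.82), with 66.7% of the UMIs of B in 1 cell and 92.4% in 5. IL32, a cytokine, was at 29.2, 32.2, 82.1 and 35.1 CPM (-1.49; -1.69 to -1.29), with 68.7% in 5 cells. With each gene capped per cell at its 99th percentile, the ratios were -2.95, -1.88 and -0.79. Without each gene's top 5% of cells in either group they were -4.06 (2.59 CPM in A, 43.7 CPM in B), -4.58 (0.49 and 12.5 CPM) and -0.94, so the direction did not rest on those cells alone; among G1 cells IL32 had -0.25 (-0.60 to 0.11). In the intermediate cells divided by GANAB the ratio of G0S2 was 0.99.

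A few cells of B resembled the predominant cells of the control library. Cells with more UMIs of MAN1A1, MME and CDH2 than of SPANXB1, FAM133A, TMEM132D-AS1 and SEMA3A were 2741 of 3050 control cells (89.9%), 0 of 343 in A (which allows a share of up to 0.875%), 10 of the intermediate cells (0.903%) and 4 of 105 in B (3.81%; 1.05% to 9.47%). Of 9 measured genes that mark this control type, 4 were called lower in A, beside 6.2% of all genes. The median of the 9 was -0.49, beside -0.17 for all genes. MME, 1 of those called, is also in the set that picked the cells. MME, the membrane peptidase neprilysin, stood at 2.86 CPM in A, 5.49 CPM in the intermediate cells, 16.8 CPM in B and 151 CPM in the control library (-2.54; -3.12 to -2.00). BDKRB1, a bradykinin receptor, was at 2.26, 7.78, 17.8 and 53.2 CPM (-2.96; -3.59 to -2.39), EDIL3, a secreted integrin ligand, at 23.5, 47.2, 52.1 and 127 CPM (-1.15), and CD82, a tetraspanin, at 18.0, 20.3, 29.8 and 109 CPM (-0.73). MAN1A1, a Golgi mannosidase, was counted with 0.133 CPM in A and 5.72 CPM in B (-5.13; -8.54 to -3.44), where 5 cells held 96.4% of its UMIs, and was too low to be measured. VGF (18.4 and 25.7 CPM; -0.49), TMEM158 (67.9 and 82.7 CPM; -0.29) and DSE (13.1 and 17.0 CPM; -0.38) were not called, and neither were TNC (-0.03) or GMDS (0.01). Without the 4 cells the median was -0.25 and 3 genes were called lower. The numbers over all genes were then 476 lower and 44 higher. Cells that resemble the control type less clearly may remain in B, and their part was not tested.

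Genes that set most knockdown cells apart from the control library also varied between A and B, in both directions. SPANXB1, a cancer-testis gene, stood at 201 CPM in A, 324 CPM in the intermediate cells, 456 CPM in B and 14.0 CPM in the control library (-1.18; -1.26 to -1.10). At 30000 UMIs per cell it was counted in 16.3% of the cells of A, 26.7% of the intermediate cells, 39.0% of B and 1.97% of the control cells. TMEM132D-AS1, a long noncoding RNA, went the other way, at 155, 142, 89.1 and 9.27 CPM (0.80; 0.66 to 0.95) and in 84.8%, 75.4%, 55.2% and 5.90% of cells. FAM133A was at 117, 146, 159 and 23.7 CPM (-0.44), SEMA3A, a guidance ligand, at 72.7, 68.9, 52.7 and 9.34 CPM (0.46), and SOX4, a transcription factor, at 242, 247, 257 and 35.1 CPM (-0.09). All 5 were well above the control library in each of the 3 knockdown groups. The sources used here do not say whether reads were counted by strand, so reads of TMEM132D-AS1 and of the gene it overlaps may not be told apart.

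Within 1000000 bases of GANAB 24 other genes were measured, with a median of -0.13 beside -0.17 for all genes, 4 called lower (beside 6.2% of all genes) and none called higher. The nearest, B3GAT3, a proteoglycan glucuronosyltransferase that lies 2651 bases from GANAB, was at 39.4 CPM in A and 44.9 CPM in B (-0.19; -0.42 to 0.04). CSKMT (0.01), UQCC3 (0.04), UBXN1 (-0.08), EEF1G (-0.10) and HNRNPUL2 (-0.45; -0.74 to -0.14) were not called either. The 4 called lower were NXF1, an mRNA export factor (11.8 and 18.0 CPM; -0.61), ASRGL1, an asparaginase (10.1 and 16.8 CPM; -0.73), FADS1, a fatty acid desaturase (34.7 and 60.1 CPM; -0.79), and FEN1, a nuclease that also stands in the S phase list (17.2 and 25.9 CPM; -0.60). On chromosome 11, over genes with starts from 10304680 to 44885903, where intermediate cells stood below the control library with a median of -0.71 over 56 genes, the median of A over B was -0.23. On chromosome 9, over genes with starts from 91213815 to 114611206, where they stood above it (0.45 over 75 genes), it was -0.11. Both medians were near that of all genes, -0.17.

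The cytoskeletal, matrix and metabolic lists are given beside the 0.591% of all genes called higher and the 6.2% called lower. Of 16 mesenchymal genes (median 0.09), TAGLN, transgelin (15.3 CPM in A, 6.13 CPM in B; 1.30; 0.77 to 1.92), and ACTA2, smooth muscle actin (11.6 and 7.56 CPM; 0.61; 0.10 to 1.18), were called higher, and 1 gene was called lower. The 8 fibroblast markers, summed to 11.8 CPM in A and 3.47 CPM in B, moved the same way as TAGLN and ACTA2, and their part was not tested. TAGLN stood at 19.8 CPM in the intermediate cells, above A. For TAGLN 5 cells held 73.3% of the UMIs of B and 42.6% of those of A. ACTA2 turned to -0.02 without its top 5% of cells. With 1 gene called lower in each list, PLOD1, a collagen hydroxylase (33.1 and 50.3 CPM; -0.60), of 14 extracellular matrix genes with a median of -0.33, ITGA2, a collagen-binding integrin (23 and 35.1 CPM; -0.61), of 7 integrins, KRT7, a simple-epithelium keratin (15.6 and 23.5 CPM; -0.59), of 3 epithelial genes, and P4HA1, a hypoxia-induced prolyl hydroxylase (21.1 and 34.9 CPM; -0.73), of 15 genes of hypoxia and glycolysis, passed the rule. None was called among 39 ribosomal protein genes (median 0.10), 41 nuclear genes of oxidative phosphorylation (0.04), 17 lysosomal genes (0.03) or 11 mitochondrially encoded genes (-0.04). Nor was any among 16 heat shock genes (-0.11), 13 growth factor receptors (-0.12) or 10 p53 targets (-0.05). Each of these 7 medians is above that of all genes, -0.17, which is not a comparison at like expression. Genes of 1000 CPM and more had a median of 0.11, near that of the ribosomal protein genes. Ribosomal protein genes took 22.5% of the UMIs of A and 20.7% of those of B, and 23.1% and 20.7% in the control split. RPL39 had the largest ratio among those named, at 6210 CPM in A, 5662 CPM in the intermediate cells, 4662 CPM in B and 3460 CPM in the control library (0.41; 0.39 to 0.43), with the same ratio of 0.41 in the control split.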

How the data were processed

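Single-cell 3' libraries (10x Genomics v3 chemistry, 10000 cells added per channel) were made from 1 control and 1 GANAB knockdown sample, per the labels. The matrices deposited by the authors give unnormalized UMI counts for each gene in each barcode. They were made with Cell Ranger 3.1.0 against GRCh38, per the submitters' processing notes. The sources used here do not say how strand and mouse reads were handled. Each matrix lists 6794880 barcodes and 33538 genes, so empty droplets were still present; the libraries hold 155064055 (knockdown) and 239857346 (control) UMIs. The members, gene lists and tests were chosen with earlier results of these data known.

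Barcodes of 30000 to 80000 UMIs with at most 20% mitochondrial UMIs were kept, and no doublet caller was run. Counts were summed over the cells of a group and scaled to CPM. Ratios have 0.5 counts added to each sum and exact conditional binomial 95% intervals; the size rule was 1.5-fold with an interval excluding 1 among genes of at least 10 CPM in A or B. GANAB was left out of all comparisons of genes. The intervals and limits of 3 counts cover counting error only. Cells were thinned to 30000 UMIs for phase scores (scanpy 1.11.5) and genes per cell. In strata, CPM was weighted by the cells of A and B together. Of 654 symbols in 33 lists, 650 were found. The code was tested on simulated counts. Gene positions came from GENCODE release 29 for 33456 genes and promoters from RefSeq.

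Named were GANAB and PRKCSH, per direction the 15 called genes with the largest ratio at 30 CPM or more in the higher group, leaving out mitochondrial, clone-named and ribosomal pseudogene entries, up to 4 genes per list (2 with the largest ratio on the side of the list's median and 2 with the highest mean CPM), all genes of the lists for the control type and for knockdown cells, and the 6 measured neighbours nearest GANAB. SQLE, OASL, UHRF1, MCM3, HELLS, NXF1 and FEN1 were named after their values were seen. Values of some single genes are not reported here, while counts and medians include them. Alternatives covered depth, phase, the group rules, the window, scaling, the size rule, low counts and uneven cells. Ratios centred on the median, cells low in MALAT1, the division of intermediate cells and the removal of the top 5% of cells were added after the data were seen.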

Additional observations from a re-analysis of the deposited data

Results flagged for a closer look

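Of the genes named by the rule, 4 were called in opposite directions in the knockdown library and in the control library divided by the same rule. Over all 7780 measured genes 6 were called in opposite directions and 158 in the same direction. The difference between the libraries was not tested, and the control side rests on 57 cells without a GANAB UMI. ID2 had a log2 ratio of 0.87 in the knockdown library (118 CPM in A, 64.4 CPM in B) and of -0.78 in the control library (14.1 and 24.7 CPM). PLK2 had 0.70 (49.7 and 30.4 CPM) and -0.63 (20.5 and 32.2 CPM). ACTA2 had 0.61 (11.6 and 7.56 CPM) and -0.71, from 14 control UMIs. BDKRB1 had -2.96 (2.26 and 17.8 CPM) and 0.82 (84.8 and 48.3 CPM). In B, 5 cells held 45.4% of the UMIs of ID2, 34.9% of PLK2, 32.4% of ACTA2 and 67.8% of BDKRB1. In A the shares were 16.7%, 24.4%, 40.6% and 67.6%.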

How the results depend on the processing

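With 1 library per genotype no library could be left out. No paired analysis was possible because the groups compared are cells of 1 library. The numbers of genes lower and higher in A, 482 and 46, stayed within 1.5 times under thinning (609 and 61), depth strata (496 and 49), phase strata (398 and 43), both together (443 and 48), G1 cells only (414 and 54), equal weight per cell, B from 4 UMIs, a window from 20000 UMIs, at most 10% mitochondrial UMIs, without the 4 cells like the control type, with capped genes, and without each gene's top 5% of cells. Larger were the numbers in S and G2M cells only (1335 and 182; 62 and 29 cells), from 50000 UMIs (996 and 125), with B from 150 CPM (1544 and 149; 19 cells in B), measured at 1 CPM (993 and 157) and with a smaller ratio required (1760 and 173). Smaller were those with B from 75 CPM (235 and 24), A against all cells with a GANAB UMI (60 and 6), measured at 50 CPM (56 and 13) and in the divided intermediate cells (40 and 9). Centring gave 193 and 108, and leaving out cells low in MALAT1 gave 384 and 113. The cause of these moves was not tested beyond the numbers of cells and genes that enter. The cycling difference, -9.5 percentage points, lay between -11.7 and -7.1 in all 8 alternatives. The divided intermediate cells, not among these 8, had the reverse order, 26.6% cycling under 30 CPM and 23.8% with at least 60 CPM. Ratios of called genes that turned were, in divided intermediate cells, ACTA2 -0.41, ASRGL1 0.10, BDKRB1 0.18, BHLHE40 -0.03, CENPF 0.07, DUSP5 -0.16, G0S2 0.99, ID2 -0.13, IFIT1 -0.06, IFIT2 -0.45, NFIL3 -0.10, NUF2 0.14, NUSAP1 0.29, PLK2 -0.33, ST3GAL4 0.14 and TYMS 0.01. Elsewhere ACTA2 turned in S and G2M cells (-0.80) and without top cells (-0.02), EDIL3 with B from 150 CPM (0.45), IFIT2 from 50000 UMIs (-0.29), with B from 75 CPM (-0.45) and from 4 UMIs (-0.14), NUSAP1 in G1 cells (0.12), OAS2 from 50000 UMIs (0.70) and TAGLN against all cells with a GANAB UMI (-0.29). Depth limits the split itself, since a count of 0 allows 99.8 CPM of GANAB at the lowest depth in A and 39.2 CPM at the highest.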
